A study of Mus musculus with 9 samples.

Results

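The 8 genes described here act in ferroptosis and in the handling of iron: ACSL4, LPCAT3, GPX4, AIFM2, TFRC, FTH1, FTL and NCOA4. They were taken by gene name from a table of 58735 human genes, and all 8 were among the 15492 genes with enough counts to be tested. ACSL4 and TFRC stand in the set because they have been reported as targets of YAP1.

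The cells were Caki, a long-established human kidney cancer line of the clear cell type, and every group, controls included, had received a retroviral vector and G418 selection. In MX the vector was empty. It held wild-type YAP1 in the YAP1 group, and in YAP1-S127A a mutant whose Hippo kinase site carries alanine, cannot be phosphorylated there and stays active. The sample labels name the mouse as the organism, but the table lists human genes. Each group had 3 libraries, 9 in all, with 15789722 to 24811150 counts. Nothing in the labels tells whether the 3 were separate cultures or clones, so p-values reflect library-to-library spread that may be technical alone.

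Ferroptosis is a form of cell death driven by iron-dependent peroxidation of membrane lipids. ACSL4 and LPCAT3 place polyunsaturated fatty acids into phospholipids, where they can be oxidised, while GPX4 and AIFM2 (also called FSP1) remove or intercept the lipid peroxides. TFRC brings iron into the cell, FTH1 and FTL build the ferritin shell that stores it, and NCOA4 carries ferritin to the lysosome, where the iron is released. Clear cell renal carcinoma lines are known for their sensitivity to loss of GPX4, and cell density acting through YAP1 has been linked to that sensitivity in other epithelial cells.

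The introduced gene followed the labels. Levels are in CPM, the count of a gene relative to the TMM-scaled size of its library. YAP1 averaged 99.9 ± 8.64 CPM (SD, n = 3) in MX and 1220.0 ± 268 CPM in the YAP1 group, and in YAP1-S127A it averaged 688 ± 55.0 CPM. The YAP targets ANKRD1 and CYR61 rose by 2.05 and 0.96 on the log2 scale with YAP1, and by 2.84 and 1.34 with YAP1-S127A. Of 18 tested YAP and TEAD targets, 8 rose with YAP1 and 12 with YAP1-S127A. Of all tested genes, 3.23 and 9.53% were called higher in these comparisons. Between the constructs 6 of the 18 rose and 1 fell, beside 1.13 and 0.839% of all tested genes. CTGF, also on that list, averaged 139, 132 and 177 CPM in MX, YAP1 and YAP1-S127A. Renal epithelial markers were present, PAX8 at 281 CPM, KRT8 at 2260 CPM and VIM at 2530 CPM on average, except that CA9, the usual hypoxia marker of clear cell carcinoma, averaged 0.334 CPM. Leukocyte, endothelial and erythroid marker lists summed to at most 1.68, 1.89 and 0.229 CPM in any library. The 6 fibroblast markers summed to 29.8 to 36.8 CPM in MX and to 33.6 to 39.2 CPM with YAP1. In YAP1-S127A they summed to 91.4 to 211 CPM. PDGFRB and COL1A2 were the highest on average, at 34.4 and 29.6 CPM, and COL1A2 ran from 0.423 to 138 CPM over the libraries. LUM averaged 4.31 CPM, while DCN, THY1 and PDGFRA averaged only 0.623, 0.131 and 0.0428 CPM. The part of these markers in the results was not tested. In RNA from a whole culture, fewer cells of a type and less RNA per cell cannot be told apart. Mitochondrial transcripts took 1.896 to 6.60% of the counts in MX, 3.50 to 11.4% with YAP1 and 7.40 to 29.6% with YAP1-S127A.

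None of the 8 genes was called higher or lower, 0 of 8 in each of the 3 comparisons (edgeR, quasi-likelihood, Benjamini-Hochberg adjusted p under 0.05 over all tested genes). Of all tested genes, 6.81% passed in YAP1 against MX, 18.4% in YAP1-S127A against MX and 1.97% in YAP1-S127A against YAP1. In that order the share of all genes called higher was 3.23, 9.53 and 1.13%, and the share called lower 3.58, 8.84 and 0.839%. At an unadjusted p under 0.05 there was 1 of the 8 genes in each comparison with MX, TFRC both times, and 0 between the constructs. DESeq2 and limma-voom also called 0 of the 8 in each comparison. For TFRC in YAP1 against MX the adjusted p was 0.0521 in DESeq2, just over the threshold, and 0.133 in limma-voom. The median log2 fold change of the 8 genes was 0.03 with YAP1, 0.05 with YAP1-S127A and 0.06 between the constructs, beside medians of -0.0036, -0.0045 and 0.0056 over all tested genes. Each of the 24 intervals at 95% lay within a 2-fold change in either direction.

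**Figure D1:**
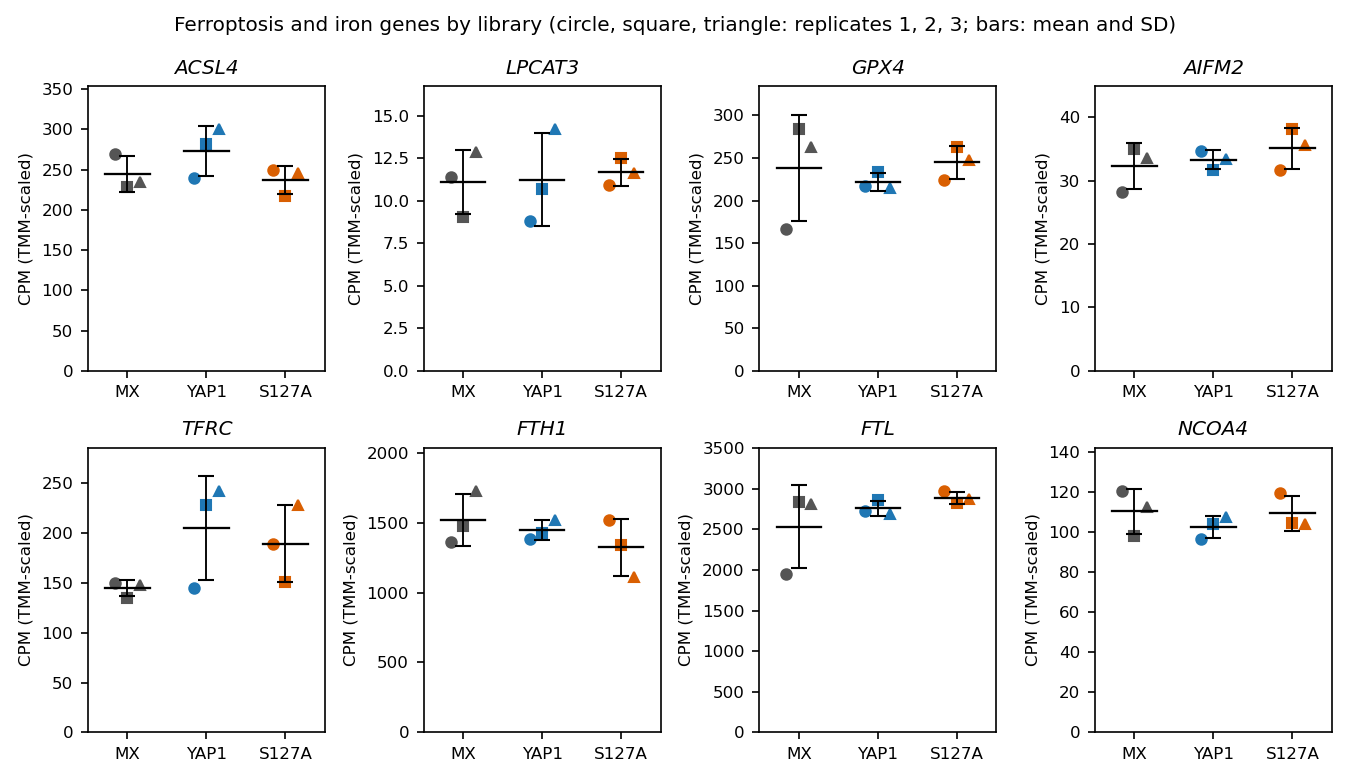
Level of each of the 8 genes in CPM (vertical axes, from 0) in the 9 libraries, with the group mean and SD as black bars. Groups overlap for all genes except TFRC, where the lowest YAP1-S127A library, at 151.02 CPM, lies just above the highest MX library, at 150.52 CPM.

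ACSL4 (ENSG00000068366) activates arachidonic and other polyunsaturated fatty acids for insertion into phospholipids. It lies on chromosome X from 109624244 to 109733403 on the minus strand. All positions are those of the table, whose human build no source used here names. Its level was 269.7, 229 and 235 CPM in MX replicates 1 to 3, 239, 282 and 299.9 CPM with YAP1, and 249, 217 and 245 CPM with YAP1-S127A. The groups overlapped, and the highest library was a YAP1 one while the lowest was a YAP1-S127A one. In the order MX, YAP1 and YAP1-S127A the means were 244 ± 22.1, 273 ± 31.2 and 237 ± 17.6 CPM (SD, n = 3 each). The log2 fold change against MX was 0.16 with YAP1 (SE 0.12, edgeR adjusted p = 0.517, 95% interval -0.09 to 0.42). With YAP1-S127A it was -0.04 (SE 0.12, adjusted p = 0.849, 95% interval -0.30 to 0.21). Neither difference exceeded the spread between libraries, and between the constructs the value was -0.21 (SE 0.12, adjusted p = 0.527).

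LPCAT3 (ENSG00000111684), the acyltransferase that attaches the activated fatty acids to lysophospholipids, lies on chromosome 12 from 6976186 to 7018510 on the minus strand. It had the fewest counts of the 8 genes, 143 to 342 per library. Its level was 11.4, 9.07 and 12.8 CPM in MX, 8.81, 10.7 and 14.2 CPM with YAP1, and 10.9, 12.5 and 11.7 CPM with YAP1-S127A. The YAP1 group held both the lowest and the highest library. Group means were nearly level at 11.1 ± 1.91, 11.2 ± 2.73 and 11.7 ± 0.795 CPM. Against MX the log2 fold change was 0.01 with YAP1 (SE 0.18, adjusted p = 0.980) and 0.07 with YAP1-S127A (SE 0.18, adjusted p = 0.846).

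GPX4 (ENSG00000167468), the selenoenzyme that reduces phospholipid hydroperoxides with glutathione, is encoded on the plus strand of chromosome 19 between 1103926 and 1106791. Its level was 167, 283 and 263 CPM in MX, 217, 233 and 214 CPM with YAP1, and 224, 263 and 247 CPM with YAP1-S127A. MX replicate 1 was the lowest of all 9 libraries and MX replicate 2 the highest, so that the control group spanned both others. Means were 238 ± 62.3, 221 ± 10.3 and 245 ± 19.7 CPM. The log2 fold change was -0.10 with YAP1 (SE 0.15, adjusted p = 0.785, 95% interval -0.42 to 0.22) and 0.04 with YAP1-S127A (SE 0.15, adjusted p = 0.892, 95% interval -0.28 to 0.36). Without MX replicate 1 these values were -0.31 (adjusted p = 0.0847) and -0.17 (adjusted p = 0.309), still not called, and the sign with YAP1-S127A had turned.

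AIFM2 (ENSG00000042286) regenerates reduced ubiquinone, which traps lipid radicals without GPX4. The gene lies on chromosome 10 from 70098223 to 70132934 on the minus strand. Its level was 28.2, 35.0 and 33.6 CPM in MX, 34.7, 31.7 and 33.5 CPM with YAP1, and 31.6, 38.1 and 35.6 CPM with YAP1-S127A. The 3 groups overlapped, with MX replicate 1 again the lowest library. AIFM2 had a log2 fold change of 0.05 with YAP1 (SE 0.12, adjusted p = 0.881) and 0.12 with YAP1-S127A (SE 0.12, adjusted p = 0.534).

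TFRC (ENSG00000072274), the transferrin receptor, takes up iron bound to transferrin. It lies on chromosome 3 from 196027183 to 196082189 on the minus strand. Its level was 151, 135 and 148 CPM in MX, 145, 228 and 242.5 CPM with YAP1, and 189, 151 and 228 CPM with YAP1-S127A. The MX libraries lay close together, while each construct group had 1 library at the MX level, YAP1 replicate 1 and YAP1-S127A replicate 2, and 2 libraries above it. The 3 means were 145 ± 8.06, 205 ± 52.6 and 189.5 ± 38.7 CPM. The log2 fold change was 0.51 with YAP1 (SE 0.17, unadjusted p = 0.00849, edgeR adjusted p = 0.0907, 95% interval 0.15 to 0.86). With YAP1-S127A it was 0.39 (SE 0.17, unadjusted p = 0.0348, adjusted p = 0.125, 95% interval 0.03 to 0.75). All YAP1-S127A libraries lay above all MX libraries, as for 16.7% of all tested genes, and 32.6% did not overlap counting both directions (16.0% lower). It was 1 of the 8 genes without overlap in that comparison, with 0 of 8 in the other comparisons, where 24.1% of all genes did not overlap for YAP1 against MX (12.1% higher, 12.0% lower) and 19.6% between the constructs (10.3% higher, 9.34% lower). Between the constructs the value was -0.11 (SE 0.17, adjusted p = 0.854).

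Single libraries decided whether TFRC passed the threshold. Without YAP1 replicate 1 the log2 fold change with YAP1 was 0.70 (adjusted p = 0.0101), and without YAP1-S127A replicate 2 that with YAP1-S127A was 0.53 (adjusted p = 0.04825). Without YAP1 replicate 3 the value with YAP1 was 0.37 (adjusted p = 0.3705). Without YAP1-S127A replicate 3 that with YAP1-S127A was 0.24 (adjusted p = 0.4504), and with YAP1-S127A replicate 2 as the only library of its group it was 0.06 (adjusted p = 0.927). With no filter on low counts TFRC passed in both comparisons, at 0.51 (adjusted p = 0.00353) and 0.38 (adjusted p = 0.0383). In both construct groups the library with the least TFRC had the smallest mitochondrial share, whereas in MX the library with the least TFRC, replicate 2 at 135 CPM, had the largest share, 6.60%. In the YAP1 group the shares were 3.50, 8.60 and 11.4% for TFRC levels of 145, 228 and 242.5 CPM, and with YAP1-S127A they were 29.6, 7.40 and 21.2% for 189, 151 and 228 CPM. With the mitochondrial share as a covariate the TFRC value was 0.41 with YAP1 (adjusted p = 0.141) and 0.01 with YAP1-S127A (adjusted p = 0.982). All YAP1-S127A shares lay above all MX shares, the nearest being 7.40 and 6.60%. The covariate value in that comparison therefore rests on a slope shared by all groups. Whether share or construct accounts for the TFRC levels was not tested. Scaled to total counts it was 0.42 (adjusted p = 0.129) and 0.10 (adjusted p = 0.672).

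**Figure D2:**
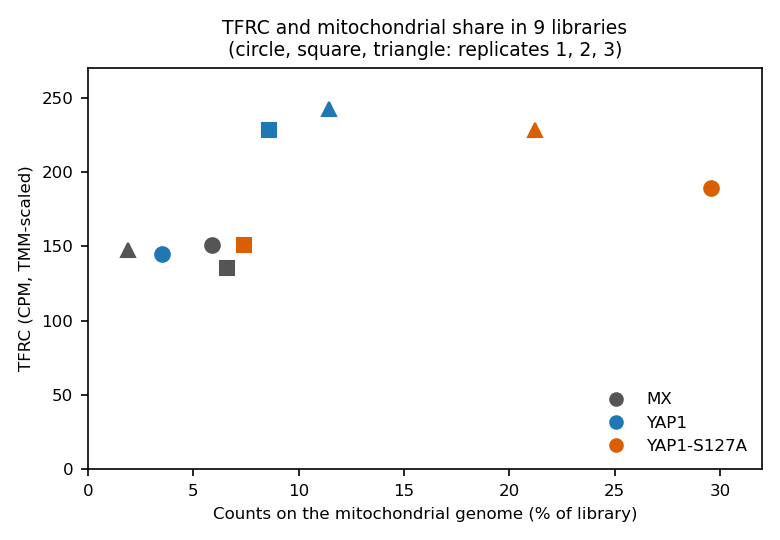
TFRC level in CPM (vertical axis, from 0) against the share of counts on the mitochondrial genome in percent (horizontal axis) for the 9 libraries, coloured by group. The 5 libraries with shares up to 7.40% lie between 135 and 151 CPM, and the 4 with larger shares lie between 189 and 242.5 CPM. This cut was set after the values were seen. All MX libraries are among the 5, together with YAP1 replicate 1 and YAP1-S127A replicate 2, and all of the 4 carry a construct. No MX library has a share above 7.40%, so share and construct cannot be fully told apart.

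FTH1 (ENSG00000167996), the ferritin heavy chain that oxidises iron for storage, lies on chromosome 11 from 61959718 to 61967660 on the minus strand. Its level was 1361, 1476 and 1726 CPM in MX, 1383, 1427 and 1522 CPM with YAP1, and 1517, 1337 and 1114 CPM with YAP1-S127A. All 3 groups overlapped, and the lowest library was YAP1-S127A replicate 3. Means were 1521 ± 187, 1444 ± 71.0 and 1323 ± 202 CPM. FTH1 had a log2 fold change of -0.075 with YAP1 (SE 0.14, adjusted p = 0.834) and -0.20 with YAP1-S127A (SE 0.14, adjusted p = 0.365, 95% interval -0.50 to 0.10). Scaled to total counts, which include the mitochondrial transcripts and moved the median of all genes by -0.27 in that comparison, FTH1 passed with -0.48 (adjusted p = 0.0329). Reads of 16 FTH1 pseudogenes came to 1.08 to 1.45% of the FTH1 counts, and adding them left the value at -0.20 (adjusted p = 0.365).

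FTL (ENSG00000087086), the ferritin light chain that helps form the iron core, is encoded on the plus strand of chromosome 19 between 48965301 and 48966878. Its level was 1947, 2841 and 2816 CPM in MX, 2729, 2856 and 2687 CPM with YAP1, and 2973, 2819.9 and 2872 CPM with YAP1-S127A. Apart from the low MX replicate 1, the other 8 libraries lay within a narrow range. MX replicate 1 was thus low for both GPX4 and FTL, and there the 1006 tested genes of chromosome 19 lay a median of -0.06 from their own means over the 9 libraries on the log2 scale, against 0.13 and 0.09 in MX replicates 2 and 3. AIFM2 was also lowest in MX replicate 1, where the genes of its chromosome 10 lay a median of 0.11 from their means. The cause of the low values was not tested. With the shift of each chromosome in each library removed, GPX4 was at -0.03 with YAP1 and 0.12 with YAP1-S127A (adjusted p = 0.9452 and 0.5783), and FTL at 0.19 and 0.27 (adjusted p = 0.5116 and 0.1977), none of them called. The log2 fold change of FTL was 0.12 with YAP1 (SE 0.15, adjusted p = 0.728) and 0.19 with YAP1-S127A (SE 0.15, adjusted p = 0.431). Without MX replicate 1 these were -0.04 (adjusted p = 0.901) and 0.02 (adjusted p = 0.939).

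NCOA4 (ENSG00000266412), the receptor that takes ferritin to the lysosome, lies on chromosome 10 from 46005088 to 46030714 on the minus strand. Its level was 120.5, 98.2 and 112 CPM in MX, 96.3, 104 and 107 CPM with YAP1, and 119, 105 and 104 CPM with YAP1-S127A. It was the most even of the 8 genes between MX and YAP1-S127A, with means of 110.4 ± 11.3 and 109 ± 8.70 CPM, beside 103 ± 5.68 CPM with YAP1. NCOA4 had a log2 fold change of -0.11 with YAP1 (SE 0.11, adjusted p = 0.682) and -0.01 with YAP1-S127A (SE 0.11, adjusted p = 0.950, 95% interval -0.26 to 0.23).

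**Figure D3:**
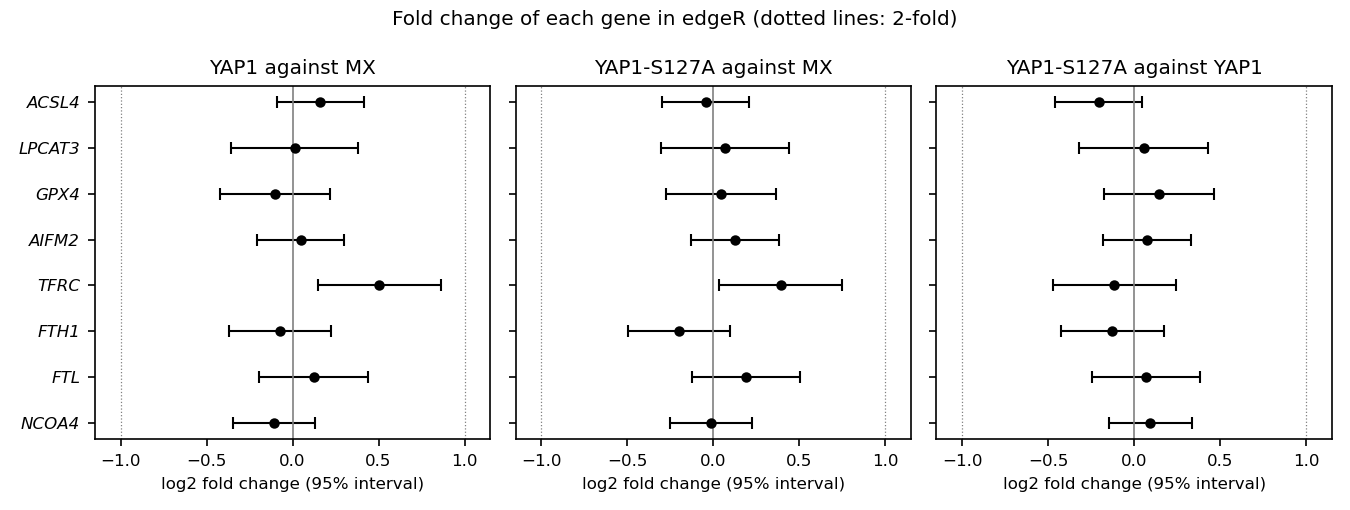
Log2 fold change (horizontal axes) of each of the 8 genes in the 3 comparisons, as points with 95% intervals from edgeR. Of the 24 intervals, those of TFRC against MX, 0.15 to 0.86 and 0.03 to 0.75, exclude 0, and all lie inside the dotted lines that mark a 2-fold change.

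Per length, as RPKM (CPM divided by the gene length in kilobases that the table gives), the order of the levels was almost the same in the 3 groups. In MX it ran FTL (2887 RPKM), FTH1 (749 RPKM), GPX4 (118 RPKM), ACSL4 (38.1 RPKM), NCOA4 (27.1 RPKM), TFRC (18.3 RPKM), AIFM2 (6.29 RPKM) and LPCAT3 (2.35 RPKM). In MX the libraries of neighbours in this order did not overlap. With either construct TFRC and NCOA4 overlapped, at 26.0 and 25.1 RPKM with YAP1 and at 24.0 and 26.8 RPKM with YAP1-S127A. Ferritin transcripts, FTH1 and FTL together, took 0.397 to 0.509% of the counts outside the mitochondrial genome in MX, 0.463 to 0.476% with YAP1 and 0.448 to 0.514% with YAP1-S127A. The ratio of FTL to FTH1 per length was 3.31 to 4.45 in MX, 4.08 to 4.63 with YAP1 and 4.53 to 5.96 with YAP1-S127A. The ratio of TFRC to FTH1 per length sets the transcript of an iron uptake gene beside that of a storage gene. It was 0.0220 to 0.0285 in MX, 0.0270 to 0.0412 with YAP1 and 0.0291 to 0.0528 with YAP1-S127A. For both ratios the YAP1-S127A libraries lay above all MX libraries and the YAP1 libraries overlapped both. For the other 4 of the 6 ratios computed, the libraries of either construct overlapped those of MX. Among them was TFRC to FTL, the other ratio of an uptake to a storage transcript. It was 0.00531 to 0.00861 in MX, 0.00592 to 0.0100 with YAP1 and 0.00596 to 0.00885 with YAP1-S127A. The ratio of NCOA4 to FTH1 was 0.0324 to 0.0441 in MX, 0.0347 to 0.0363 in the YAP1 group and 0.0390 to 0.0465 in YAP1-S127A. Those of ACSL4 to GPX4 and to LPCAT3 overlapped between all groups. The ratios were computed after the single genes had been seen, and were not tested.

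Around these 8 genes, 6 lists of iron and ferroptosis genes held 122 tested genes, the 8 included. With YAP1 4 rose and 7 fell, together 9.02% of the 122, where 6.81% of all tested genes passed. With YAP1-S127A 9 rose and 7 fell, 13.1%, where 18.4% of all tested genes passed. Between the constructs 2 of the 122 passed, 1.64% beside 1.97%. Scaled to total counts, 2 were called higher and 30 lower with YAP1-S127A. With YAP1 the 11 calls became 4 without YAP1 replicate 3, 5 without MX replicate 3 and 7 without YAP1 replicate 2. With YAP1-S127A the 16 became 8 with YAP1-S127A replicate 2 alone and 8 with the mitochondrial share as covariate. Between the constructs there were 0 without YAP1-S127A replicate 3, and 1 without any of MX replicate 3, YAP1 replicates 1 to 3 and YAP1-S127A replicate 1. The list medians ran from a log2 fold change of -0.10 to 0.11 with YAP1 and from -0.11 to 0.09 with YAP1-S127A.

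**Figure D4:**
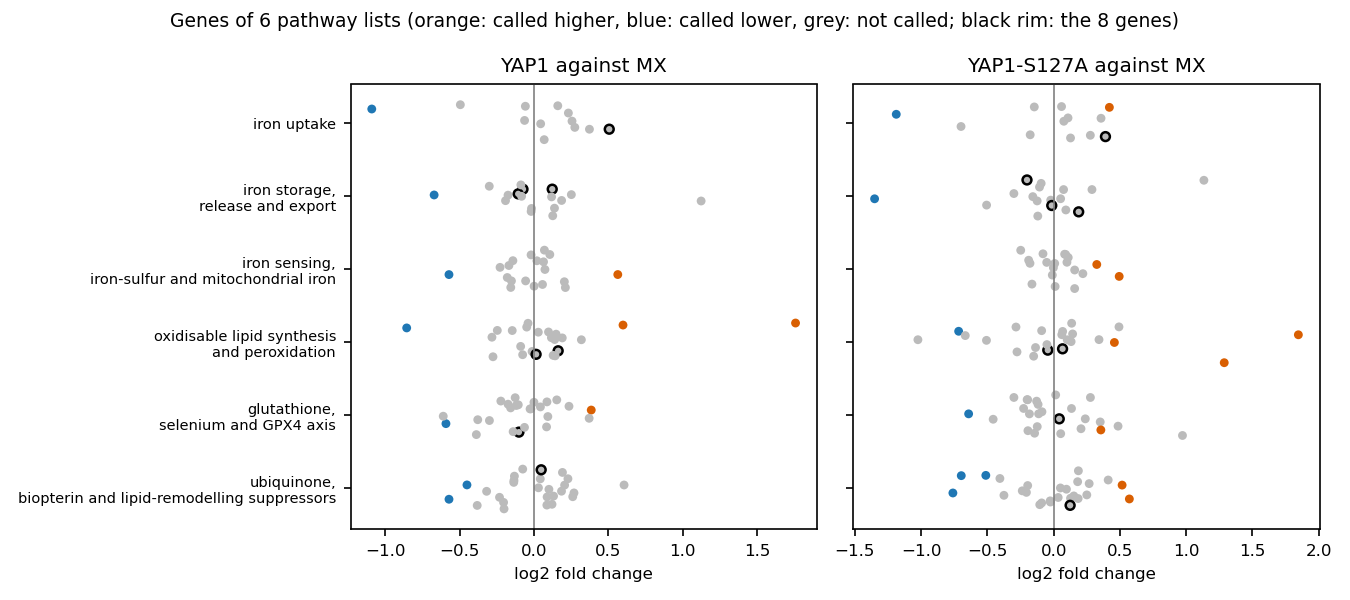
Log2 fold change (horizontal axes) of each tested gene of the 6 lists (rows) in YAP1 against MX and YAP1-S127A against MX. The 8 genes, with black rims, lie between -0.20 and 0.51 and are grey (not called), while SLC40A1 and TFR2 lie to the left and EMP1 and ALOX5AP to the right.

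Of 17 tested genes of iron storage, release and export, 1 passed in each comparison, SLC40A1, which encodes ferroportin, the only known iron exporter of the cell membrane. Its level was 26.8, 28.1 and 28.9 CPM in MX, 14.0, 19.8 and 18.6 CPM with YAP1, and 8.39, 13.9 and 10.4 CPM with YAP1-S127A. The groups were stepwise apart, with MX highest and YAP1-S127A lowest and no overlap. SLC40A1 fell by 0.67 with YAP1 (SE 0.16, adjusted p = 0.0142), by 1.35 with YAP1-S127A (SE 0.17, adjusted p = 1.17e-05) and by 0.68 between the constructs (SE 0.17, adjusted p = 0.0460). The fall with YAP1-S127A passed under all 22 alternatives, with an adjusted p of at most 0.00777. That with YAP1 was lost without MX replicate 3 or YAP1 replicate 1 (adjusted p = 0.0542 and 0.0859). The step between the constructs was lost without any of MX replicate 3, YAP1 replicates 2 and 3 and YAP1-S127A replicates 1 and 3 (adjusted p = 0.0620 to 0.215), and with the mitochondrial share as covariate (adjusted p = 0.402), limma-voom (0.0724), chromosome shifts removed (0.0502) or YAP1-S127A replicate 2 alone (0.698).

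Of 12 tested iron uptake genes, 1 fell with YAP1, and 1 rose and 1 fell with YAP1-S127A. TFR2, the second transferrin receptor, which senses iron in liver and red cell precursors, was at 3.53, 3.33 and 3.53 CPM in MX, 1.76, 1.36 and 1.73 CPM with YAP1, and 0.991, 1.65 and 1.84 CPM with YAP1-S127A. All MX libraries lay above all others, on only 13 to 99 counts per library. TFR2 fell by 1.09 with YAP1 (SE 0.27, adjusted p = 0.0154) and by 1.19 with YAP1-S127A (SE 0.27, adjusted p = 0.00454), opposite in sign to the values of TFRC. The call with YAP1 was lost without MX replicate 3 or YAP1 replicate 2 or 3 (adjusted p = 0.0507 to 0.0909), and that with YAP1-S127A under the mitochondrial covariate (0.200) and with YAP1-S127A replicate 2 alone (0.104). CYBRD1, a ferric reductase, rose by 0.42 with YAP1-S127A (SE 0.12, adjusted p = 0.0171). Its call was lost without MX replicate 2 or 3 or YAP1-S127A replicate 2 (adjusted p = 0.0535 to 0.0923), scaled to total counts (0.498), under the covariate (0.0533) and with YAP1-S127A replicate 2 alone (0.0627).

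Among 19 genes of iron sensing, iron-sulfur assembly and mitochondrial iron, 1 rose and 1 fell with YAP1 and 2 rose with YAP1-S127A. ACO1 encodes iron regulatory protein 1, which in iron-poor cells stabilises TFRC messenger RNA and blocks translation of ferritin and ferroportin. Its level was 96.6, 84.6 and 92.0 CPM in MX, 144, 132 and 128 CPM with YAP1, and 122, 148 and 115 CPM with YAP1-S127A. Every library with a construct lay above every MX library. ACO1 rose by 0.56 with YAP1 (SE 0.12, adjusted p = 0.00532) and by 0.49 with YAP1-S127A (SE 0.12, adjusted p = 0.00605). Scaled to total counts these were 0.49 (adjusted p = 0.0502) and 0.23 (0.292), and without YAP1-S127A replicate 2 the second was 0.38 (0.0530). IREB2, the second iron regulatory protein, was at 0.07 and -0.18 (adjusted p = 0.836 and 0.396, named after its values were seen). FBXL5, which marks IREB2 for degradation when iron is plentiful, rose by 0.33 with YAP1-S127A (SE 0.11, adjusted p = 0.0476), but this call was lost without any 1 of MX replicates 2 and 3, YAP1 replicates 2 and 3 and YAP1-S127A replicates 1 to 3 (adjusted p = 0.0533 to 0.142), and under 5 other settings (up to 0.827, scaled to total counts). HSCB, a chaperone of iron-sulfur assembly, fell by 0.57 with YAP1 (SE 0.16, adjusted p = 0.0339). That call was lost without MX replicate 2 or 3 or any YAP1 replicate (adjusted p = 0.0731 to 0.181), and in 3 further settings (0.0502 to 0.0559).

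Of 23 genes of oxidisable lipid synthesis and peroxidation, 2 rose and 1 fell with YAP1, 3 rose and 1 fell with YAP1-S127A, and 1 rose between the constructs. EMP1, an epithelial membrane protein that has been linked to NOX4 in ferroptosis of renal carcinoma cells, was at 16.5, 18.5 and 17.4 CPM in MX, 24.2, 26.9 and 28.2 CPM with YAP1, and 35.1, 46.3 and 46.3 CPM with YAP1-S127A. The 3 groups were stepwise apart with no overlap, in the order opposite to SLC40A1. EMP1 rose by 0.60 with YAP1 (SE 0.13, adjusted p = 0.00768), by 1.29 with YAP1-S127A (SE 0.13, adjusted p = 9.84e-07) and by 0.69 between the constructs (SE 0.13, adjusted p = 0.00595). The first was lost without YAP1 replicate 3 (adjusted p = 0.0532), and the third without YAP1 replicate 1 or YAP1-S127A replicate 3 (0.05004 and 0.0644) or scaled to total counts (0.0658). NOX4, the oxidase itself, was at -0.15 and -0.51 (SE 0.39 and 0.41, adjusted p = 0.883 and 0.443, named after its values were seen). ALOX5AP, the partner protein of 5-lipoxygenase, rose by 1.76 with YAP1 (SE 0.35, adjusted p = 0.00352) and by 1.85 with YAP1-S127A (SE 0.36, adjusted p = 0.000997), from 0.676 to 2.28 and 2.38 CPM on 13 to 62 counts per library.

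ELOVL5, which lengthens polyunsaturated fatty acids, rose by 0.46 with YAP1-S127A (SE 0.11, adjusted p = 0.00758). It was not called without YAP1-S127A replicate 3 (adjusted p = 0.0540), scaled to total counts (0.392), under the covariate (0.0926), with chromosome shifts removed (0.0617) or with YAP1-S127A replicate 2 alone (0.126). PLA2G6, a calcium-independent phospholipase that can release oxidised fatty acids, fell by 0.86 with YAP1 (SE 0.22, adjusted p = 0.0200) and by 0.72 with YAP1-S127A (SE 0.22, adjusted p = 0.0275). The first call was lost without MX replicate 2 or YAP1 replicate 2 or 3 (adjusted p = 0.0736 to 0.0944), and the second without MX replicate 2 or YAP1-S127A replicate 2 (0.0817, and 0.134 at a log2 fold change of -0.47) or with only the groups compared (0.0522). With YAP1-S127A replicate 2 alone it was -1.42.

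The glutathione, selenium and GPX4 list had 25 tested genes, of which 1 rose and 1 fell in each comparison with MX. The cystine transporter subunits SLC7A11 and SLC3A2, named after their values were seen, were at 0.15 and 0.04 with YAP1 (adjusted p = 0.721 and 0.916) and at 0.24 and 0.28 with YAP1-S127A (adjusted p = 0.421 and 0.225). GGT1, which breaks down glutathione outside the cell, fell by 0.59 with YAP1 (SE 0.15, adjusted p = 0.0166) and by 0.64 with YAP1-S127A (SE 0.15, adjusted p = 0.00420). The first call was lost when MX replicate 2 or 3, or YAP1 replicate 1 or 3, was left out (adjusted p = 0.0541 to 0.0989). Reads of GGT1 may be shared with its close gene copies, so its value is uncertain. ABCC1, an exporter of glutathione and its conjugates, rose by 0.38 with YAP1 (SE 0.11, adjusted p = 0.0347) and by 0.36 with YAP1-S127A (SE 0.11, adjusted p = 0.0256). These calls were lost without MX replicate 3 or any YAP1 replicate (adjusted p = 0.0615 to 0.143) and without MX replicate 3 or YAP1-S127A replicate 2 or 3 (0.0931 to 0.114), and scaled to total counts they were 0.32 and 0.09 (adjusted p = 0.301 and 0.702). Other settings that lost them were no filter (0.06001 and 0.0722), only the groups compared (0.0612 and 0.0564) and YAP1-S127A replicate 2 alone (0.0626 and 0.168), and for the second the covariate (0.131).

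Of 26 tested suppressors that act through ubiquinone, biopterin or lipid remodelling, 2 fell with YAP1, and 2 rose and 3 fell with YAP1-S127A. NQO1, which reduces quinones and is a target of NRF2, was at 205, 219 and 245 CPM in MX, 141, 153 and 156 CPM with YAP1, and 139.5, 138 and 135 CPM with YAP1-S127A. All libraries with a construct lay below all MX libraries. NQO1 fell by 0.57 with YAP1 (SE 0.11, adjusted p = 0.00256) and by 0.70 with YAP1-S127A (SE 0.11, adjusted p = 0.000160), and both calls held under all 22 alternatives. COQ8A, an atypical kinase needed for ubiquinone synthesis, was at 47.8, 45.9 and 49.97 CPM in MX, 36.5, 36.5 and 32.1 CPM with YAP1, and 30.6, 27.3 and 27.0 CPM with YAP1-S127A, with no overlap between the groups. It fell by 0.45 with YAP1 (SE 0.11, adjusted p = 0.0176) and by 0.76 with YAP1-S127A (SE 0.11, adjusted p = 8.89e-05). The first call was lost without MX replicate 3 or YAP1 replicate 2 or 3 (adjusted p = 0.0544 to 0.132). Between the constructs COQ8A was at -0.31 (SE 0.11, edgeR adjusted p = 0.236) and NQO1 at -0.12 (SE 0.11, adjusted p = 0.716). Neither was called. The YAP1-S127A libraries of both lay below the YAP1 ones, as for 9.34% of all tested genes.

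**Figure D5:**
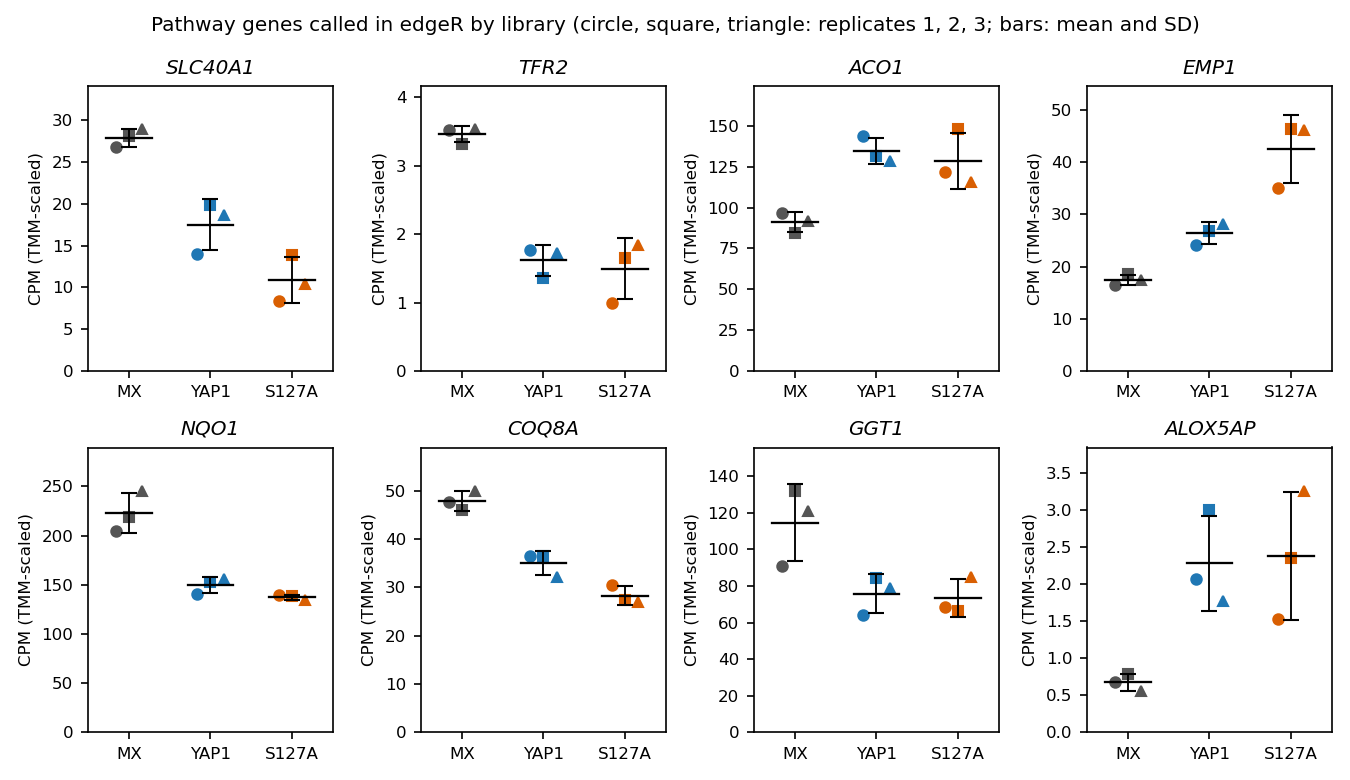
Levels in CPM (vertical axes, from 0) of 8 called genes of the lists in the 9 libraries, with the group mean and SD as black bars. SLC40A1 and COQ8A step down and EMP1 steps up from MX to YAP1 to YAP1-S127A, though the step of COQ8A between the constructs was not called. TFR2, ACO1, NQO1, GGT1 and ALOX5AP lie at similar levels with either construct and were not called between them.

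CHMP5, of the membrane repair complex ESCRT-III, rose by 0.52 with YAP1-S127A (SE 0.13, adjusted p = 0.00694), and was not called scaled to total counts (adjusted p = 0.254), under the covariate (0.193) or with YAP1-S127A replicate 2 alone (0.170). SCD, which makes the monounsaturated fatty acids that resist oxidation, fell by 0.51 (SE 0.16, adjusted p = 0.0272), although its libraries overlapped those of MX. That call was lost without MX replicate 1 or 2 or YAP1-S127A replicate 1 or 2 (adjusted p = 0.0761 to 0.118), under the covariate (0.116) and with YAP1-S127A replicate 2 alone (0.0607). COQ3, another enzyme of ubiquinone synthesis and outside the naming rule, rose by 0.57 (SE 0.18, adjusted p = 0.0355). It was not called without MX replicate 1 or 3 or any YAP1-S127A replicate (adjusted p = 0.0545 to 0.131) and in 6 other settings (0.0513 to 0.304).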

How the data were processed

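The authors deposited raw read counts per gene, whole numbers with no visible normalization, with a gene length in bases. The libraries were stranded messenger RNA, per the labels' protocols. HISAT2, Cufflinks, Salmon 1.9.0 and the mouse build GRCm39 appear in the submitters' processing notes, though the genes are human. No source used here names the human build, the counter or its strand setting, so reads of close copies and antisense genes may be shared. No sequences are printed, since those at hand were of the mouse.

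The 15492 genes passing filterByExpr were scaled by TMM. All 9 libraries entered 1 robust quasi-likelihood fit by group (edgeR 4.0.16, R 4.3.3), two-sided, with p adjusted over all tested genes by Benjamini-Hochberg and calls at 0.05. SE is the absolute log2 fold change over the square root of F. RPKM uses the deposited lengths. In a library, 3 counts stand for 0.121 to 0.190 CPM. Alternatives used limma 3.58.1, DESeq2 1.42.0 and the settings in the closing section; for chromosome shifts, the median deviation of a chromosome's genes in a library entered as an offset. Pseudogenes were matched by name. The fit was tested on simulated counts.

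The 8 genes and the lists were chosen with earlier results of these data known. Up to 4 further genes per list were named, those with the smallest p in YAP1-S127A against MX among genes called in any comparison. Genes of like pattern were to be named for called members, so none is. PEDS1 was not matched by name, and CYR61 was matched by its older name.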

Additional observations from a re-analysis of the deposited data

How the results depend on the processing

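For the 8 genes, 22 alternatives were run in each comparison. None of the 8 was called in the main fit, and no value that changed sign was called in the setting where it turned. Scaling to total counts shifted the all-gene median by -0.07, -0.27 and -0.20 (log2). Under it log2 fold changes turned for AIFM2 (-0.0182) and LPCAT3 (-0.0711) with YAP1. With YAP1-S127A against MX they turned for GPX4 (-0.2129), FTL (-0.0798), AIFM2 (-0.1385) and LPCAT3 (-0.2073), and between the constructs for GPX4 (-0.0506), FTL (-0.139), AIFM2 (-0.1203), NCOA4 (-0.1147) and LPCAT3 (-0.1362). LPCAT3 was -0.0084 with YAP1 by limma-voom. With chromosome shifts removed NCOA4 was 0.0021 with YAP1 and 0.0284 with YAP1-S127A, and LPCAT3 was -0.0113 between the constructs. Leaving out 1 library at a time, values with YAP1 ran from -0.3074 to 0.0434 for GPX4, -0.1522 to 0.0237 for FTH1, -0.0403 to 0.213 for FTL, -0.0455 to 0.1097 for AIFM2 and -0.1931 to 0.1634 for LPCAT3. With YAP1-S127A against MX they ran from -0.0931 to 0.0234 for ACSL4, -0.1684 to 0.1827 for GPX4, -0.0939 to 0.0438 for NCOA4 and -0.0548 to 0.1778 for LPCAT3. Between the constructs TFRC ran from -0.3175 to 0.0216 and LPCAT3 from -0.1008 to 0.2605. The cause was not tested for any of these.

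The count of the 8 genes called became 1 with YAP1 and 1 with YAP1-S127A when no filter was used (TFRC both times), 1 with YAP1-S127A scaled to total counts (FTH1), and ran from 0 to 1 in either comparison with MX when 1 library was left out (TFRC). Over all genes, calls with YAP1 (1055) ran from 601 to 1423 with 1 library left out. Calls with YAP1-S127A against MX (2845, 1476 higher and 1369 lower) ran from 1847 to 3079, and were 4447 scaled to total counts (611 higher, 3836 lower), 1405 with the mitochondrial share as covariate and 1278 with YAP1-S127A replicate 2 as the only library of its group, an alternative chosen after seeing the data in which that library is assumed to vary like the other groups. Between the constructs the 305 calls (175 higher, 130 lower) ran from 126 to 465, and were 616 scaled to total counts (113 higher, 503 lower), 520 with no filter, 475 by DESeq2, 478 with only the groups compared and 151 with YAP1-S127A replicate 2 alone. Scaled to total counts, calls with YAP1 were 311 higher and 679 lower, against 500 and 555.

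With the replicate number as a block, 1428 genes were called with YAP1, 3426 with YAP1-S127A against MX and 472 between the constructs. Of the 8 genes, 0 were called in any comparison. The labels share only numbers and name no pairing. The deviations of same-numbered libraries correlated by -0.1779 to 0.2044, and those of differently numbered ones by -0.2544 to 0.2068. These ranges cannot decide whether same-numbered libraries were paired. The fewest counts among the 8 genes were those of LPCAT3, 143 in 1 library, so a small change of LPCAT3 is the least resolved.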
